A study of Mnemiopsis leidyi with 40 samples.

Results

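The 38 genes described here reached their highest level in embryos of the comb jelly Mnemiopsis leidyi at 8 to 9 h of development and stood at no more than 2/3 of it at 11 to 13 h and at 20 h. They were chosen from 16548 gene models by their own counts. For each block of neighbouring times (0 to 1, 2 to 3, 4 to 5, 5.5 to 6.5, 7 to 7.5, 8 to 9, 11 to 13 and 20 h) the reads of a gene were summed over the embryos and divided by all gene reads of the block, which gives counts per 1000000 gene reads (CPM). A gene was taken when 8 to 9 h was its highest block, when that level was at least 30 CPM and at least 8 times the level at 0 to 1 h, and when the levels at 11 to 13 h and at 20 h were each at most 2/3 of it. The 10 h embryos were not used in the choice. Since these values chose the genes, the block levels and the differences between the blocks are a description.

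The study sampled 40 single embryos, 2 at each of 20 times between 0 and 20 h, and the labels give hours but no stage, parent or spawning. Messenger RNA was counted by CEL-Seq, in which the RNA of every embryo carries its own barcode and the ends of the transcripts are sequenced. Replicate 1 of every time was in a library pool with index 6 (pool 6) and replicate 2 in a pool with index 12 (pool 12). Gene reads per embryo lay between 977034 and 4511124 in 36 embryos. The other 4 libraries had 580587 (4 h replicate 1), 343202 (8.5 h replicate 2), 264033 (5.5 h replicate 2) and 3808 gene reads (10 h replicate 1). The last of these was left out of every level and test below. In 8.5 h replicate 2, 3 reads correspond to 8.741 CPM.

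Ctenophore embryos start from RNA laid down in the egg and switch to transcription of their own genome during cleavage. Gastrulation and the formation of comb rows, tentacles, pharynx and apical organ follow within the first day, before a swimming cydippid hatches. A transcript that is high only for a few hours in such a course has to be made and then either degraded or diluted among other transcripts, and CPM, a share of all gene reads, does not separate these. In whole embryos, fewer cells of a type and less RNA per cell cannot be told apart either. The files do not pair the gene IDs with names, and 0 of the 16548 IDs were found in the RefSeq gene table of the species, so IDs stand for the genes and nothing is said of what their products do.

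Of the 14596 genes with a read, 1278 were highest at 8 to 9 h, 260 of these reached 30 CPM and 80 of those were at least 8 times above 0 to 1 h. The late limits then removed 38 genes that stayed over 2/3 of the peak at 11 to 13 h and 4 more that were over 2/3 at 20 h only. A further 32 genes met every limit except that another block was highest, 12 of them at 7 to 7.5 h and 12 at 5.5 to 6.5 h. Genes just inside the limits were close to genes just outside. ML040012a had 31.3 CPM at 8 to 9 h and was taken, and ML003022a had 28.5 CPM and was not. ML111728a was 9.62 times above 0 to 1 h and ML141749a 7.91 times. The level at 11 to 13 h was 66.05% of that at 8 to 9 h in ML03332a, inside, and 66.68% in ML16138a, outside. The level at 20 h was 64.08% in ML120743a, inside, and 66.83% in ML033234a, outside. ML111728a was inside with a level at 8 to 9 h 1.00 times its next block, and ML128432a was outside at 0.972 times.

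The genes were almost silent up to 3 h. Their median level was 0.824 CPM at 0 to 1 h (range 0 to 11.3) and 1.30 CPM at 2 to 3 h (0 to 6.74), and 11 of the 38 had under 3 reads in all 4 embryos of 0 to 1 h together. The median then stood at 10.65 CPM at 4 to 5 h, 33.2 CPM at 5.5 to 6.5 h, 43.8 CPM at 7 to 7.5 h and 79.8 CPM at 8 to 9 h, where the range was 31.3 to 1472 CPM. It was 34.7 CPM at 11 to 13 h and 21.75 CPM at 20 h. The level at 8 to 9 h was a median of 92.35 times that at 0 to 1 h (range 9.62 to 929.1, with 3 reads put in for genes below that floor). The lead over the second-highest block was much smaller, with a median of 1.53 times and a range of 1.00 to 3.44. It was under 2 times in 33 genes and under 1.5 times in 16.

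Added up, the 38 genes took 66.55 ± 13.65 CPM at 0 to 1 h (SD, n = 4 embryos), 65.84 ± 14.47 at 2 to 3 h (n = 4), 654.6 ± 889.4 at 4 to 5 h (n = 6), 2601 ± 1278 at 5.5 to 6.5 h (n = 6) and 4491 ± 1408 at 7 to 7.5 h (n = 4). The sum was 7287 ± 1078 CPM at 8 to 9 h (n = 6), 3380 ± 653.1 at 11 to 13 h (n = 6) and 1485 ± 263 at 20 h (n = 2). The 6 embryos of 8 to 9 h ranged from 5412 to 8297 CPM with a median of 7475. The embryos of 11 to 13 h ranged from 2843 to 4283 CPM. That these groups did not overlap is a description, since the rule chose genes that were lower at 11 to 13 h in these same embryos. A single gene, ML05383a, made up a sizeable part of the sum. Without it the sum was 5965 CPM at 8 to 9 h and 2636 CPM at 11 to 13 h.

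**Figure D1:**
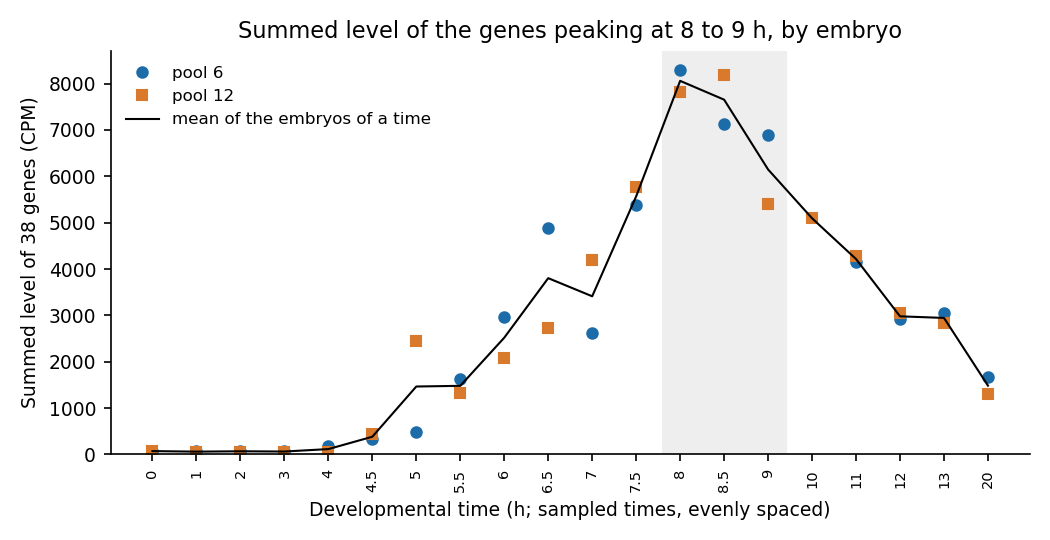
Summed level of the 38 genes in CPM (y axis) in each embryo against developmental time (x axis, sampled times evenly spaced), with circles for pool 6, squares for pool 12, a line through the mean of each time and 8 to 9 h shaded. The sum is near 66 CPM up to 3 h, lies between 5412 and 8297 CPM in the shaded embryos and is 1299 and 1670 CPM in the embryos of 20 h.

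The way up differed among the genes. The first block to reach 50% of the 8 to 9 h level was 4 to 5 h for 1 gene, 5.5 to 6.5 h for 12, 7 to 7.5 h for 17 and 8 to 9 h for 8. Levels went up at every step from 2 to 3 h on in 27 genes, while the other 11 were lower at 7 to 7.5 h than at 5.5 to 6.5 h. The second-highest block was 7 to 7.5 h for 20 genes, 11 to 13 h for 10, 5.5 to 6.5 h for 6 and 20 h for 2. The highest single time was 8 h for 18 genes, 8.5 h for 13 and 9 h for 5, with 1 gene each at 6.5 and 7.5 h. On the way down, 23 genes were at 50% or less of the peak at 11 to 13 h, and 30 were at 20 h. The level at 20 h was below that at 11 to 13 h in 28 genes and at most 10% of the peak in 8. In 37 of the 38 genes, though, the level at 20 h was still at least 2 times that at 0 to 1 h.

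**Figure D2:**
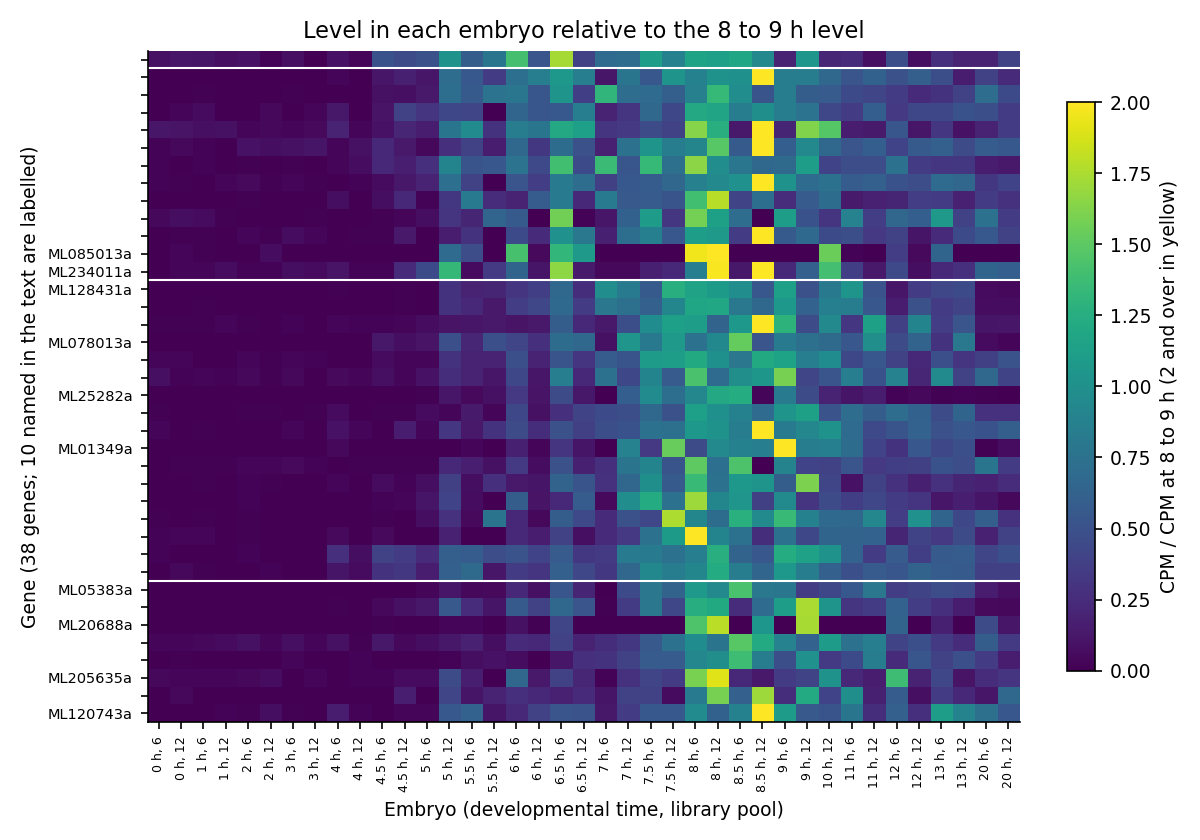
Level of each of the 38 genes (rows) in each of 39 embryos (columns, by time and library pool), as a ratio of the CPM in the embryo to the gene's CPM at 8 to 9 h, with ratios of 2 and over in yellow. White lines part the genes by the first block that reached 50% of the 8 to 9 h level, which was 4 to 5 h for 1 gene, 5.5 to 6.5 h for 12, 7 to 7.5 h for 17 and 8 to 9 h for 8. The dark cells at 7 and 7.5 h inside the second and last sections are genes with few or no reads there.

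ML05383a was the most abundant gene of the set. At 7 h it had 0 CPM in replicate 1 and 665.9 CPM in replicate 2, and at 7.5 h 1170 and 937.7 CPM. The 6 embryos of 8 to 9 h had 526.1 CPM at the lowest, a median of 1282 and 2103 CPM at the highest. The 6 embryos of 11 to 13 h had 538.8, 670.3 and 1167 CPM as lowest, median and highest value, and those of 20 h had 219.2 and 116.8 CPM. The embryos of 11 to 13 h overlapped with those of 8 to 9 h, and both embryos of 20 h were below all of them. The zero stood in a library of 1384763 gene reads, where 3 reads would be 2.17 CPM, while the other embryo of 7 h had 3004 reads of the gene. ML25282a and ML01349a also had 0 reads in that embryo, against 463 and 339 reads in 7 h replicate 2.

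ML128431a, the second most abundant gene, and its neighbour by number ML128430a followed the same course. ML128431a had 875.2 and 727.8 CPM at 7 h, 502.9 and 1127 CPM at 7.5 h, and 443.2 to 1025 CPM with a median of 923.6 in the embryos of 8 to 9 h. It had 105 to 922.8 CPM with a median of 388.1 at 11 to 13 h, and 49.04 and 41.65 CPM at 20 h. Its peak was therefore a plateau from 7 to 9 h. In summed reads it was 1.12 times higher at 8 to 9 h than at 7 to 7.5 h, the smallest such ratio of the 38. The mean over embryos was not higher, with 808.3 CPM at 7 to 7.5 h and 801.3 CPM at 8 to 9 h. Over the 23 embryos of 5.5 to 13 h, the log2 CPM of ML128430a and ML128431a had a Pearson correlation of 0.95. It is given as a description, since the embryos share the time course and the libraries. ML128430a held a median of 38.16% of the reads of the pair, with a range of 28.36% to 45.33%. The next ID, ML128432a, was the gene just outside the limit, with 163.6 CPM at 7 to 7.5 h and 159.1 CPM at 8 to 9 h, and its correlation was 0.84 with ML128430a and 0.79 with ML128431a. The IDs on either side did not share the course. ML128429a had 37.1 CPM at 8 to 9 h and 66.3 CPM at 0 to 1 h, and ML128433a had 45.2 and 80.15 CPM. Reads that fit several near-identical gene models may have been split or dropped in the authors' counting, and whether these IDs are copies of each other was not tested. Of all 38 genes, 6 shared the leading 4 digits of the ID with another member, in 3 groups.

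ML078013a was also little higher in summed reads at 8 to 9 h than at 7 to 7.5 h (1.15 times), with wide differences between its embryos. It had 29.6 and 349.4 CPM at 7 h, 271.8 and 360.4 CPM at 7.5 h, 249.4 and 313.3 CPM at 8 h, 511.8 and 177.7 CPM at 8.5 h and 272.9 and 246.7 CPM at 9 h. By 20 h it had 20.1 and 11.9 CPM, below every embryo from 7 to 9 h. ML01349a had 28.4 and 130.7 CPM at 7.5 h, 39.5 and 80.1 CPM at 8 h, 74.6 and 72.8 CPM at 8.5 h and 177.7 and 71.65 CPM at 9 h. Its values were highest at 9 h in pool 6 and at 7.5 h in pool 12.

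ML25282a had the sharpest decline among the genes still counted at 20 h. It had 158.6 and 206 CPM at 8 h, 211.8 and 5.83 CPM at 8.5 h and 140 and 79.8 CPM at 9 h. At 11 h it had 20.0 and 26.1 CPM, at 12 h 3.71 and 7.33 CPM, at 13 h 2.60 and 3.35 CPM and at 20 h 1.49 and 0.744 CPM. In the shallow library of 8.5 h, 5.83 CPM stands for 2 reads, below the level of 3 reads and below both values at 11 h. The next-lowest value of 8 to 9 h, 79.8 CPM, is well above the level of 3 reads in that library. Every embryo of 8 to 9 h except this one was above every later embryo. At the other end, ML120743a and ML234011a kept 64.08% and 62.01% of their 8 to 9 h level at 20 h. ML120743a had 18.4 to 36.2 CPM in 5 embryos of 8 to 9 h and 206.9 CPM in the shallow 8.5 h replicate 2, and it had 24.5 and 17.85 CPM at 20 h. Outside that library its values at 8 to 9 h overlapped with those at 20 h.

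**Figure D3:**
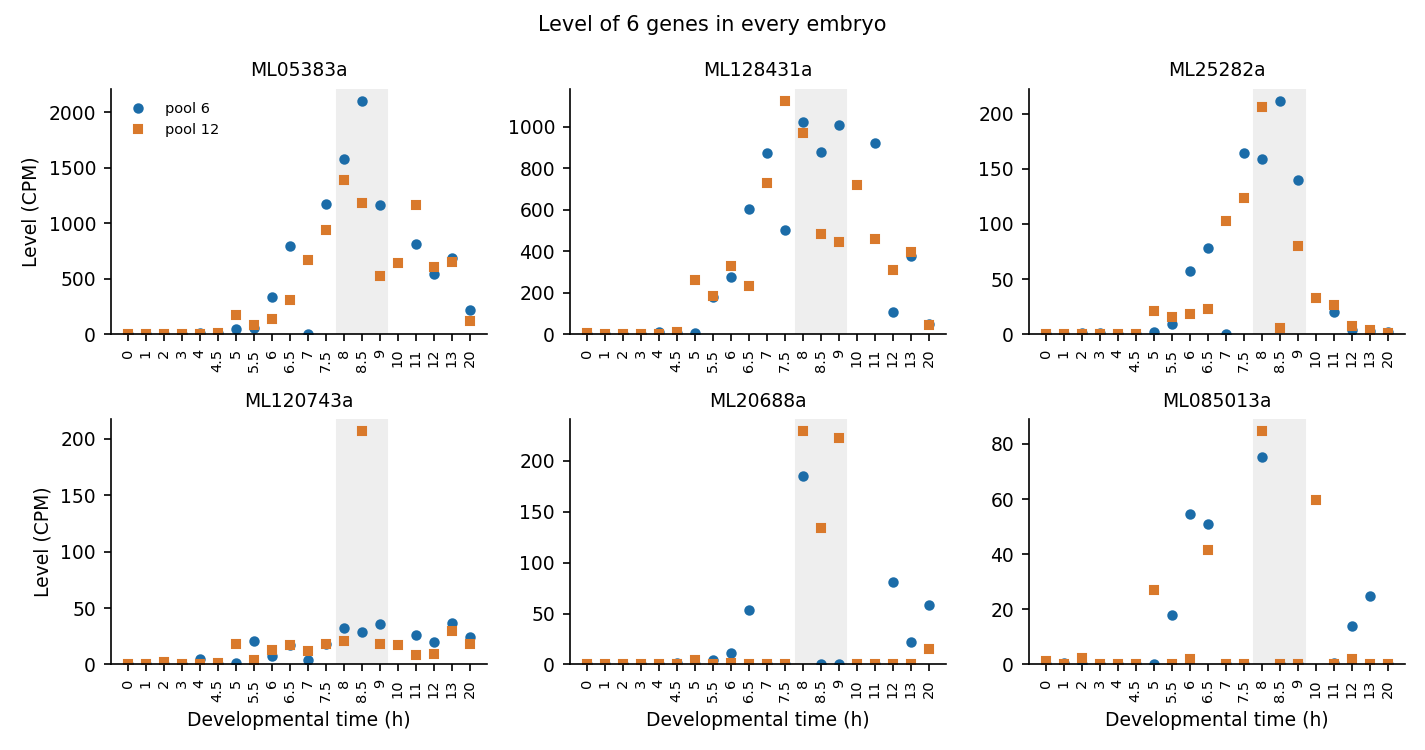
Level in CPM (y axes, each with its own scale) of 6 of the genes in each embryo against developmental time (x axes), with circles for pool 6, squares for pool 12 and 8 to 9 h shaded. ML05383a and ML128431a form broad peaks, ML25282a is below 27 CPM in all embryos of 11 h and later, ML120743a has a single value of 206.9 CPM, and ML20688a and ML085013a alternate between high values and 0.

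Some genes did not change smoothly but were high in some embryos and absent from others of nearly the same age. ML085013a had 75.2 and 84.7 CPM at 8 h and 0 reads in both embryos of 7, 7.5, 8.5 and 9 h. It was present before, with 50.9 and 41.4 CPM at 6.5 h, and again in 10 h replicate 2, with 59.6 CPM, and it had 0 reads in both embryos of 20 h. ML20688a had 0 reads in all 4 embryos of 7 to 7.5 h, 184.9 and 229.3 CPM at 8 h, 0 and 134 CPM at 8.5 h and 0 and 222.1 CPM at 9 h. It had 0 reads in 10 h replicate 2 and in both embryos of 11 h, then 81.4 and 0.523 CPM at 12 h, 22.1 and 0 CPM at 13 h and 58.7 and 15.6 CPM at 20 h. Set against 3 reads over the 7 to 7.5 h block, the level at 8 to 9 h was at least 388.8-fold higher for ML20688a and at least 117-fold higher for ML085013a. Over the 17 embryos of 7 to 13 h, 25 of the 646 values of the 38 genes were zeros, in 7 genes, and these 2 genes held 10 zeros each. ML205635a, the gene with the second-largest lead over its next block, had 104 and 123.9 CPM at 8 h but 27.0 and 22.5 CPM at 7.5 h and 14.5 and 8.74 CPM at 8.5 h. The last of these values is at the level of 3 reads.

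The 11 genes that were lower at 7 to 7.5 h than at 5.5 to 6.5 h, a group formed after the values were seen and given with no test, include ML085013a, ML20688a, ML205635a and ML234011a. In replicates 1 and 2, their summed level was 1352 and 1052 CPM at 6.5 h, 174.8 and 674.1 CPM at 7 h, 1001 and 869.7 CPM at 7.5 h, 2038 and 2120 CPM at 8 h, 822 and 2555 CPM at 8.5 h and 1333 and 2124 CPM at 9 h. The sum of the other 27 genes was 3526 and 1676 CPM at 6.5 h, 2456 and 3520 CPM at 7 h, 4377 and 4890 CPM at 7.5 h, 6259 and 5703 CPM at 8 h, 6304 and 5626 CPM at 8.5 h and 5551 and 3289 CPM at 9 h. Both sums were lower at 7 h than at 6.5 h in pool 6, while in pool 12 the sum of the 27 genes was higher at 7 h and that of the 11 lower. At 8.5 and 9 h the sum of the 11 was higher in pool 12 than in pool 6, and the sum of the 27 was lower.

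Contrasts between times were fitted across the whole table with edgeR's quasi-likelihood test in 39 embryos, with 10569 genes tested and all 38 among them. A gene was called at a Benjamini-Hochberg adjusted p below 0.05 and a change of at least 2-fold. For 8 to 9 h minus 0 to 1 h, 37 of the 38 genes were called higher, beside 24.7% of all genes tested, with a median log2 fold change of 7.22 for the 38 and 0.42 for all genes. The exception was ML085013a, with a log2 fold change of 0.70 and an adjusted p of 0.938 by edgeR. For 8 to 9 h minus 7 to 7.5 h, 1 gene was called higher, beside 0.539% of all genes, with medians of 0.64 and 0.00. It was ML20688a, whose adjusted p by edgeR was 0.0493. DESeq2 called 4 genes and a fit with the pools as a replicate block called 2, while without the 4 shallow libraries no gene was called. Leaving out 1 embryo at a time gave 0 calls for 12 of 18 embryos, 3 without 8.5 h replicate 1 and 4 without 7 h replicate 2. The rule used these contrasts, so the counts are a description.

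For 8 to 9 h minus 11 to 13 h, 9 of the 38 genes were called higher, beside 1.9% of all genes, with medians of 0.96 and -0.10. ML25282a differed by 4.14 ± 0.77 (log2, SE; adjusted p = 0.000782 by edgeR). Without 8.5 h replicate 1 it was 2.58 with an adjusted p of 0.133. ML05383a differed by 0.73 ± 0.59 (adjusted p = 0.531 by edgeR), less than the spread between embryos allows to call. Leaving out 9 h replicate 2 lowered the count to 3, and it was 5 when 11 h replicate 1 or the second embryo of 8, 8.5, 12 or 13 h was left out. For 8 to 9 h minus 20 h, 11 genes were called higher, beside 3.07% of all genes, with medians of 1.60 and -0.05. ML25282a differed by 6.91 ± 1.60 (adjusted p = 0.00459), ML01349a by 4.64 ± 1.27 (adjusted p = 0.0172), ML078013a by 4.29 ± 0.86 (adjusted p = 0.00108) and ML128431a by 4.19 ± 0.91 (adjusted p = 0.00234). ML05383a, at 3.00 ± 1.01, missed the threshold (adjusted p = 0.0531). The rule used the contrasts with 11 to 13 h and 20 h as well, so the counts and p-values are a description. ML25282a was also named for its low level at 20 h, where it had 2 and 1 reads and ML01349a had 1 and 8. Only 2 embryos stand for 20 h. Without replicate 1 of 20 h the count was 4, and without replicate 2 it was 3. In these fits the remaining embryo is assumed to vary like the others. ML25282a and ML01349a then had adjusted p-values of 0.069 and 0.212 without replicate 1 and 0.0942 and 0.0717 without replicate 2, and ML128431a had 0.0622 without replicate 2.

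Within the peak, 9 h minus 8 h was not itself compared by the rule, which summed 8, 8.5 and 9 h. Summed reads weight embryos by depth, however. The 8 h embryos had 1595573 and 3057795 gene reads, and those of 9 h had 1407221 and 977034. The choice thus favoured genes high at 8 h, and the values below are a description. No gene of the 38 was called in either direction by edgeR or by DESeq2, and 0% of the 10569 genes tested were. The median log2 fold change was -0.46 for the 38 and -0.01 for all genes, and 3 of the 38 were lower and 0 higher at an unadjusted p below 0.05. ML085013a had the smallest p among the genes lower at 9 h (0.00241, adjusted p = 0.958 by edgeR), with 0 reads in both embryos of 9 h against 75.2 and 84.7 CPM at 8 h. ML01349a had the smallest among those higher, with a log2 fold change of 1.03 ± 1.08 (adjusted p = 1 by edgeR).

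To measure the genes in embryos that had no part in their choice, the rule was applied to each pool alone and the genes were then tested in the other pool. Pool 6 alone gave 32 genes, of which 20 belong to the 38, and pool 12 alone gave 53 genes, of which 28 do. Only 10 genes were chosen in both. Of the 32 genes chosen in pool 6, 14 (43.75%) were again highest at 8 to 9 h in pool 12, 10 were highest at 7 to 7.5 h, 5 at 11 to 13 h and 3 at 20 h. Of the 53 chosen in pool 12, 23 (43.4%) were highest at 8 to 9 h in pool 6, with 10 at 5.5 to 6.5 h, 6 at 7 to 7.5 h, 8 at 11 to 13 h and 6 at 20 h. Among all genes that reached 30 CPM and 8 times their 0 to 1 h level in their highest block, 102 of 1117 (9.132%) were highest at 8 to 9 h in pool 12 and 79 of 1131 (6.985%) in pool 6. This wider set had to pass both limits in the pool measured and can include chosen genes, so the sets are not alike. Of the 32 genes, 21 reached 30 CPM and 29 reached 8 times at 8 to 9 h in pool 12. Of the 53, 39 and 46 did so in pool 6. Of the 38 genes, 20 were highest at 8 to 9 h in both pools, 7 in pool 6 only and 11 in pool 12 only.

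In the embryos not used for the choice, nearly all genes passed the test again against 0 to 1 h, and few or none did against the neighbouring blocks. The spread in these fits is between embryos of different ages in a block, so it includes change with time. Of the 32 genes chosen in pool 6, 31 were called higher at 8 to 9 h than at 0 to 1 h in pool 12, beside 15.1% of the 10017 genes tested, with a median log2 fold change of 6.80. Leaving out 0 h replicate 2 lowered this count to 17, and leaving out 1 h replicate 2 lowered it to 20. Against 7 to 7.5 h, 0 were called (beside 0.0299%), with a median of -0.20, by edgeR as by DESeq2, and 1 was higher at an unadjusted p below 0.05. Against 11 to 13 h, 0 were called (beside 1.18%) by either tool, with a median of 0.26 and 5 genes higher at an unadjusted p below 0.05. Against 20 h, edgeR called 0 (beside 0.339%) with a median of 1.65 and 11 genes higher at an unadjusted p below 0.05, while DESeq2 called 3. That count by edgeR was 8 when 5 h replicate 2 was left out and 4 when 4 h replicate 2 was.

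Of the 53 genes chosen in pool 12, 50 were called higher at 8 to 9 h than at 0 to 1 h in pool 6, beside 23.3% of the 9331 genes tested, with a median log2 fold change of 6.22. Against 7 to 7.5 h edgeR called 0 (beside 0%), with a median of 0.85 and 10 genes higher at an unadjusted p below 0.05, and DESeq2 called 3. Without 7.5 h replicate 1, edgeR called 9. Against 11 to 13 h, 1 gene was called (beside 1.59%), with a median of 0.70. This was ML25282a, at 4.28 ± 1.07 (adjusted p = 0.0271 by edgeR), and DESeq2 called 0. Against 20 h, 2 were called (beside 2.9%), with a median of 1.02: ML128430a, at 3.97 ± 0.96 (adjusted p = 0.0186), and ML09555a, at 2.85 ± 0.84 (adjusted p = 0.0473 by edgeR). Leaving out 1 embryo of pool 6 at a time gave 0 to 2 calls against 11 to 13 h and 1 to 4 against 20 h. A difference that misses the threshold here is not shown to be absent. In counts simulated for pool 12, 44% of genes changed 4-fold between 8 to 9 h and 11 to 13 h were called. Of those changed 16-fold, 100% were called. Whether these rates hold for the genes chosen here was not tested.

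**Figure D4:**
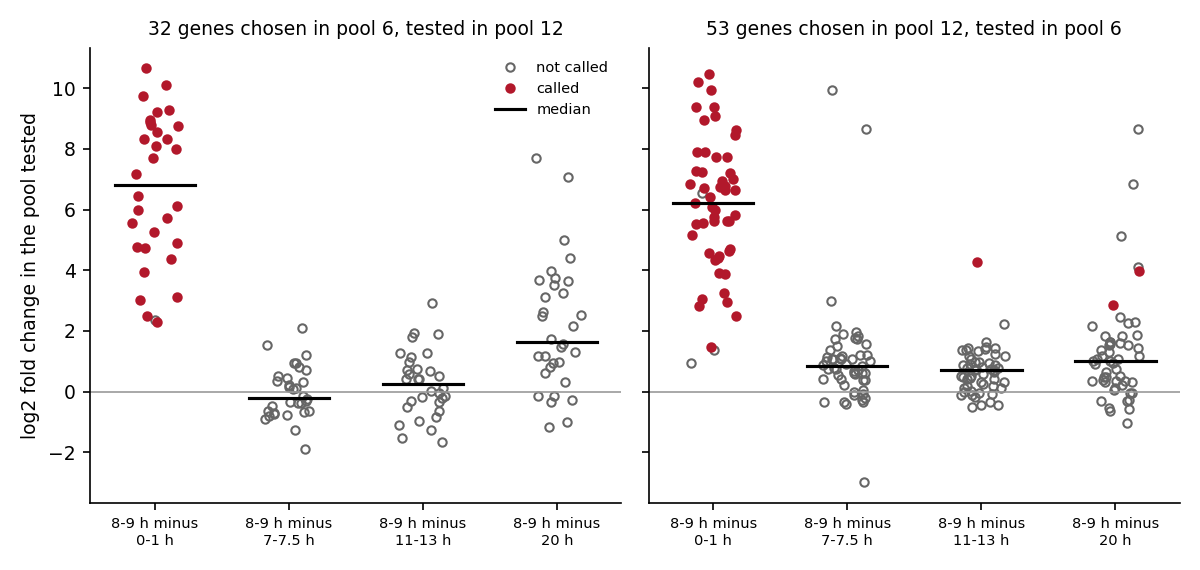
Log2 fold change of 8 to 9 h over 0 to 1 h, 7 to 7.5 h, 11 to 13 h and 20 h (x axes) for 32 genes chosen in pool 6 and measured in pool 12 (left) and for 53 genes chosen in pool 12 and measured in pool 6 (right), with filled points for genes called by edgeR and bars for the medians. The medians over 0 to 1 h are 6.80 and 6.22, and those over 7 to 7.5 h are -0.20 and 0.85.

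The 10 h embryo of pool 12 is of a time not used in the choice. The 38 genes summed to 5095 CPM there, between the sums of 8 to 9 h and 11 to 13 h, and to 4453 CPM without ML05383a. The rule chose the genes by their levels in those blocks, so this place and the percentages below are a description. Of the 38, 8 were above their 8 to 9 h level, 19 between the levels of 8 to 9 h and of 11 to 13 h and 11 below the level of 11 to 13 h, 1 of them with 0 reads. At 10 h the genes stood at a median of 65.58% of their highest block. By limits of the same kind, 56 genes that peaked at 5.5 to 7.5 h stood at 28.97% and 165 genes that peaked at 11 to 13 h at 52.51%. For the 32 genes chosen in pool 6 alone, 10 h minus 8 to 9 h had a median log2 fold change of -0.00 and 10 h minus 11 to 13 h of 0.11. In both contrasts 0 were called by edgeR or DESeq2 and 0 had an unadjusted p below 0.05, beside 0.02% of all genes called higher in each and 0% and 0.00998% called lower. The spread of the lone embryo is taken from the others.

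For the 38 genes, the 2 embryos of an age differed most at 5 h, where the median absolute difference between them (log2 of CPM plus 1) was 2.17. It was 0.36 at 8 h, 0.88 at 8.5 h and 0.75 at 9 h. Over all genes tested it was 0.58 at 5 h, 0.45 at 8 h, 0.74 at 9 h and largest at 8.5 h, at 1.18, where replicate 2 is a shallow library. At 5 h, 1 of the 38 genes was higher in the pool 6 embryo and 37 in the pool 12 embryo, with sums of 491.9 and 2440 CPM, and of all genes tested 49.1% were higher in pool 6. At 6 h, 32 genes were higher in pool 6 and 6 in pool 12 (2964 and 2074 CPM), and at 6.5 h 33 were higher in pool 6 and 5 in pool 12 (4879 and 2728 CPM). The share of all genes higher in pool 6 was then 56.76% and 62.2%. At 7 h the direction was the other way, with 7 genes higher in pool 6 and 29 in pool 12 (2631 and 4194 CPM). The share of all genes higher in pool 6 was 47.19%. Inside the peak the split was more even and near that of all genes tested. It was 21 genes higher in pool 6 and 17 in pool 12 at 8 h, 21 and 16 at 8.5 h and 22 and 15 at 9 h. Of all genes tested, 56.84%, 54.01% and 54.51% were higher in pool 6 at these times. An even split was not particular to the peak. It was 20 and 17 genes at 11 h, 20 and 18 at 12 h and 21 and 17 at 13 h. The share of all genes higher in pool 6 was then 67.03%, 63.72% and 56.21%. The pool that was ahead thus changed from time to time, and each such difference is between 2 single embryos. Single genes did differ between the pools at 8 to 9 h. ML234011a had 12.4 CPM in pool 6 and 60.07 CPM in pool 12, and ML20688a had 53.81 and 220.2 CPM, the largest ratios of the 38.

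**Figure D5:**
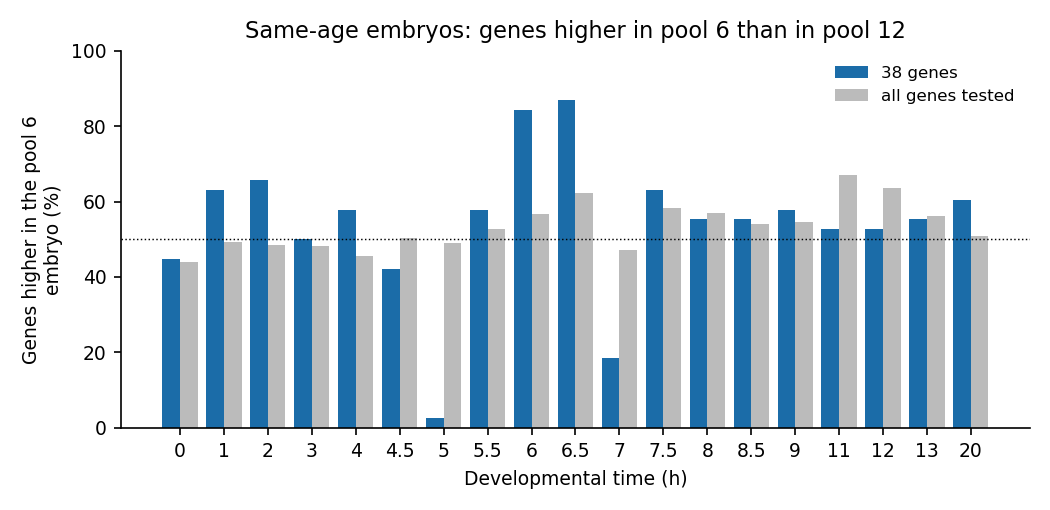
Share of genes in percent (y axis) that were higher in the pool 6 embryo than in the pool 12 embryo of the same age, at each time with 2 usable embryos (x axis), for the 38 genes (dark bars) and all 10569 genes tested (light bars), with a dotted line at 50%. The dark bars are lowest at 5 h, where 1 of the 38 genes was higher in pool 6, and highest at 6.5 h, where 33 were.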

How the data were processed

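The table of counts, unnormalized and whole, is as the authors deposited it. Tools listed in the submitters' processing notes are Bowtie2 2.1.0, HTSeq 0.5.4p3 and CASAVA 1.8. Not given in the sources used here are the build, the annotation, the strand setting and whether unique molecular identifiers were merged, so intervals and floors cover counting error only. A median of 69.18% of all reads stood in 5 rows that name no gene and stayed out. The other values used, times and library indexes, come from the authors' deposited sample sheet. It pairs embryos by pool: same-age differences correlated across genes with a median r of 0.10 between 171 pairs of times (range -0.21 to 0.51).

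Levels are CPM by total gene counts. Counts were tested in edgeR 4.0.16 (R 4.3.3) with TMM scaling, filterByExpr (count minimum 10) and a 20-level time factor without 10 h replicate 1. Each pool was fitted with 9 blocks. Fold changes are contrasts of mean time coefficients, so they differ from ratios of block CPM. SEs are approximate. P-values measure the spread between these embryos, whose origin is unstated. In the pool fits that spread is between embryos of different ages in a block, so it includes change with time. DESeq2 1.42.0, other scalings, filters and left-out embryos were alternatives. Named genes are the extremes of the 8 to 9 h level, of its ratios to the second-highest block, to 7 to 7.5 h and to 20 h, of 9 h minus 8 h and of the pool ratio, with the genes at the limits and neighbours by ID. Genes called in held-out tests were named after their values were seen. Members and lists were chosen with earlier results of these data known. Tested on simulated data, the fit of all embryos recovered 83% of genes changed 4-fold and 100% changed 16-fold between 8 to 9 h and 11 to 13 h, with 5.18% false calls.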

Additional observations from a re-analysis of the deposited data

Results flagged for a closer look

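In groups of 4 to 6 embryos, 22 sets of values of the named genes were looked at and 4 held 1 embryo far from the rest. The nominal rate of such flags by chance is about 1 in 20 groups. Whether that rate holds for these genes, named as extremes of the same data, was not tested. At 8 to 9 h, ML120743a had 206.9 CPM in 8.5 h replicate 2, a library of 343202 gene reads, and at most 36.2 CPM in the other 5 embryos. ML01349a had 177.7 CPM in 9 h replicate 1 and at most 80.1 CPM in the other 5. At 11 to 13 h, 12 h replicate 1 held the highest value of both ML20688a, with 81.36 CPM, and ML205635a, with 89.79 CPM. In the other 5 embryos of 11 to 13 h the highest values were 22.1 and 27.9 CPM. The left-out library of 10 h replicate 1 held 38 reads of the genes among its 3808 gene reads, with 26 of the 38 genes at 0 reads.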

How the results depend on the processing

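The number of genes chosen was 38, and 62 with a minimum of 10 CPM in place of 30 and 20 with a late limit of 1/2. Leaving out each of 38 embryos gave 34 to 43, and without 8 h replicate 2 the 36 genes chosen held 26 of the 38. With the mean of embryo CPM in place of summed reads, 44 genes were chosen, of which 29 were among the 38. For 8 to 9 h minus 7 to 7.5 h, the count of 1 became 2 with median-of-ratios scaling, 0 with total counts, 7 with no filter, 4 with DESeq2, 2 with the pools as a replicate block, 2 with all 40 embryos and 0 without the 4 shallow libraries. With no filter, the count against 11 to 13 h was 14 in place of 9, and that for 9 h minus 8 h was 1 in place of 0. The replicate block gave 37 calls against 0 to 1 h, 11 against 11 to 13 h, 12 against 20 h and 0 for 9 h minus 8 h. Leaving out 1 embryo gave 35 to 37 calls against 0 to 1 h, 0 to 4 against 7 to 7.5 h, 3 to 10 against 11 to 13 h, 3 to 13 against 20 h and 0 for 9 h minus 8 h. Only the 18 embryos of 7 to 9, 11 to 13 and 20 h were left out in this fit.

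For genes chosen in pool 6, no filter gave 2 calls against 11 to 13 h and 11 against 20 h, where DESeq2 gave 3. Left-out embryos gave 17 to 32 calls against 0 to 1 h, 0 against 7 to 7.5 h, 0 to 1 against 11 to 13 h, 0 to 8 against 20 h and 0 in both 10 h contrasts. For genes chosen in pool 12, no filter gave 1, 2 and 4 calls and DESeq2 gave 3, 0 and 4 calls against 7 to 7.5 h, 11 to 13 h and 20 h. Median-of-ratios scaling and total counts each gave 1 against 20 h. Left-out embryos gave 43 to 51 calls against 0 to 1 h, 0 to 9 against 7 to 7.5 h, 0 to 2 against 11 to 13 h and 1 to 4 against 20 h. Single genes were followed in 18 contrasts of named genes, those called in the main fit and the extremes of 9 h minus 8 h. These fold changes kept their direction under all alternatives run. Of the values, 417 stayed on their side of the threshold, 32 lost the call and 1 gained it. Contrasts of the other genes and those not called, such as small changes against 7 to 7.5 h, were not followed in this way.

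At 1 embryo per time and pool, changes under about 4-fold are often not called. Genes under 8.741 CPM were not measurable in 8.5 h replicate 2.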
